A study of Mus musculus with 5 samples.

Results

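The genes described here encode 55 proteins of the cytoplasmic ribosome, 33 of its large subunit and 22 of its small subunit, out of 21887 protein-coding genes of the mouse gene table used. They were taken from a list of gene symbols. In each library, a gene was said to have a gene-end peak when the summit of at least 1 called peak lay within 2.5 kb of either end of the gene. Open chromatin was profiled in CD1 mouse embryos of no stated genetic alteration by ATAC-seq, which reads where a transposase can reach and tag the DNA. Distal ectoderm of the forelimb and of the hindlimb gave 2 libraries each at embryonic stage E14.5, with the ectoderm separated from the mesoderm with trypsin, and the forebrain, digested with collagenase, gave 1 library at embryonic stage E13.5. Effects of tissue, stage and dissociation therefore cannot be told apart when these are set against each other. Nothing in the labels says that the 2 libraries of a limb came from different embryos, and their spread may be technical only.

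The ribosome reads messenger RNA and joins amino acids into protein. Its large subunit holds the centre that forms peptide bonds, and its small subunit decodes the message. Nearly every growing cell makes all of these proteins in matched amounts, and their genes are therefore used as a constitutive reference in measurements of chromatin and RNA. In mammals they are short genes with CpG-rich promoters that mostly lack a TATA box, and factors such as GABP, an ETS family protein, YY1 and Sp1 are known to act on many of them. Their transcripts start with a cytosine inside a run of pyrimidines, the terminal oligopyrimidine tract, through which the mTOR pathway controls their translation.

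Each deposited list held between 51510 (hindlimb replicate 1) and 120297 (forebrain) distinct intervals. Read totals were not used here, so the depth behind each list is unknown. The labelled tissues were compared with marker genes through their gene-end peaks. Of all protein-coding genes, 67.9% and 65.6% had such a peak in forelimb replicates 1 and 2, 58.6% and 67.6% in the hindlimb libraries, and 71.7% in forebrain. The lists of markers are short, and several of their counts were near these shares. Of 8 epidermal markers, 8 and 8 had one in forelimb replicates 1 and 2, 5 and 7 in the hindlimb libraries, and 4 in forebrain. Of 8 forebrain markers, 4, 3, 3 and 6 had one in those ectoderm libraries and 8 in forebrain. Of 3 limb mesenchyme markers, 3, 2, 2 and 3 had one in the ectoderm libraries and 3 in forebrain. Of 2 blood markers, 1 had a peak in hindlimb replicate 2 and neither had one in any other library, while both endothelial and both melanocyte markers had one in all 5. What other cells contributed to the values below was not tested.

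Of the 55 ribosomal protein genes, 44 matched an entry of the RefSeq promoter table (GRCm38.p6, the assembly of mm10), which gives 300 bases around an annotated start. No entry was matched for Rpl3, Rpl7, Rpl8, Rpl17, Rpl30, Rpl32, Rplp1, Rps14, Rps20, Rps27a or Rps29. The promoters printed here belong to the 3 members highest and the 3 members lowest in the peak lists, by the mean over the 4 ectoderm libraries, among members with an entry. This standing is by gene-end peaks. For Rpl24 it came from summits by a neighbouring gene, not from the printed promoter. For Rpl19 it came from such summits and from missing calls, and for Rps15 in part from a missing call. A missing call was counted at the last place. Capitals mark the ETS core CGGAAG on either strand, TCTCGCGA on either strand, whose matches on both strands overlap in Rpl12, and a pyrimidine run of a C and at least 7 further pyrimidines at the start. They run 5′ to 3′ on the strand of the gene, from 250 bases before the start to 50 bases from it on, and lie, in order, for Rpl37 at chr15:5116363-5116662 (plus strand), Rpl15 at chr14:18270937-18271236 (minus strand), Rpl24 at chr16:55966025-55966324 (plus strand), Rpl12 at chr2:32961462-32961761 (plus strand), Rps15 at chr10:80292181-80292480 (plus strand) and Rpl19 at chr11:98026460-98026759 (plus strand).
Rpl37: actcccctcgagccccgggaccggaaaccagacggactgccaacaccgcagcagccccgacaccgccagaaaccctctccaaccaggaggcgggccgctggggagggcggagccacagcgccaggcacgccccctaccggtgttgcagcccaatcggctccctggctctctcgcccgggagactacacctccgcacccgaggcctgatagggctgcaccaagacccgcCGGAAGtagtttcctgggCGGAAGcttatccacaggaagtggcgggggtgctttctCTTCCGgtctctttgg
Rpl15: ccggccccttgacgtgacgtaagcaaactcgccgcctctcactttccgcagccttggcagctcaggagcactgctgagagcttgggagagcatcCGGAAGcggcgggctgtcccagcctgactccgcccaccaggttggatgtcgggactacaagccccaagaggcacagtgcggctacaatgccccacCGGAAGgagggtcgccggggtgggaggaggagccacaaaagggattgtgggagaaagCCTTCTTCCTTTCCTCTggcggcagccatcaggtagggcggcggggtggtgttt
Rpl24: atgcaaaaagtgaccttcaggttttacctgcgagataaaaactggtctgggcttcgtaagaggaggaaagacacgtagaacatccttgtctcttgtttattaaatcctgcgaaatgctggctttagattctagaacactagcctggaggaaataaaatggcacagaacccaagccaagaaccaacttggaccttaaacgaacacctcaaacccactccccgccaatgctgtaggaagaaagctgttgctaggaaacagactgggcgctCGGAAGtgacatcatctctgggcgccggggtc
Rpl12: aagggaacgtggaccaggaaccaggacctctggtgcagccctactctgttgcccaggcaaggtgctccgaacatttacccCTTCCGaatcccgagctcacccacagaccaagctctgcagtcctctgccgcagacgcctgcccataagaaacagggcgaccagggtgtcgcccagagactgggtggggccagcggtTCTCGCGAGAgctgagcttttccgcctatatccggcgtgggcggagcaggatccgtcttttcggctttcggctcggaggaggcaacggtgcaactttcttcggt
Rps15: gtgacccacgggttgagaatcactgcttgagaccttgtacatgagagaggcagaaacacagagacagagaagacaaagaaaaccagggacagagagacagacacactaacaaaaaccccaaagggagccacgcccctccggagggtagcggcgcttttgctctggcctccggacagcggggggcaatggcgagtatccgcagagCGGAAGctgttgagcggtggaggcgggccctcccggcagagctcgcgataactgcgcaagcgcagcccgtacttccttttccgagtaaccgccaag
Rpl19: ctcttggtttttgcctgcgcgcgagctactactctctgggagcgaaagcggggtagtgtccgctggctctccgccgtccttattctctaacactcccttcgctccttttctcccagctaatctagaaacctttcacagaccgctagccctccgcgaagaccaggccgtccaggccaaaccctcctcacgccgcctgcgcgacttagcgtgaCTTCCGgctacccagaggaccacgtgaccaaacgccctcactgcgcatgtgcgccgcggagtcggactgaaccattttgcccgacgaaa

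Rpl37 had 3 ETS cores, all within 50 bases of its start, and Rpl15 had 2, while Rpl24, Rpl12, Rps15 and Rpl19 had 1 each. Of these promoters, only Rpl12 held TCTCGCGA and only Rpl15 held the pyrimidine run within 20 bases of its annotated start. Similar runs farther from the start, such as those downstream of it in the printed bases of Rpl37 and Rps15, were not counted or marked. The start of Rpl15 and those of the other members with the longest runs are shown next, as 41 bases centred on the annotated start with the run in capitals, to let the tracts be compared. They lie, in order, for Rpl7a at chr2:26910787-26910827 (plus strand), Rpl35 at chr2:39005111-39005151 (minus strand), Rpl15 at chr14:18270966-18271006 (minus strand), Rpl13a at chr7:45128725-45128765 (minus strand), Rpl14 at chr9:120571497-120571537 (plus strand) and Rpl4 at chr9:64173367-64173407 (plus strand).
Rpl7a: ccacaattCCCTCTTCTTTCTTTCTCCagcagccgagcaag
Rpl35: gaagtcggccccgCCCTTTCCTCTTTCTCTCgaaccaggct
Rpl15: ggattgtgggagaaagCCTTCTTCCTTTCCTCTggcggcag
Rpl13a: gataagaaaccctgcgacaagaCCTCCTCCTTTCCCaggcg
Rpl14: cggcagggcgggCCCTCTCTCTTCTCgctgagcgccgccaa
Rpl4: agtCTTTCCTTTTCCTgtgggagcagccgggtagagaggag

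The run was 19 bases long in Rpl7a, 18 in Rpl35 and 17 in Rpl15, 14 in both Rpl13a and Rpl14, and 13 in Rpl4. A run of this kind, searched on the gene strand within 20 bases of the start, occurred in 20 of the 44 members (45.5%), against 12.8% of all 17492 promoters of the table. The share depends on where the start is annotated, since runs farther from it were not counted. Of the 9230 promoters whose genes had a gene-end peak in all 5 libraries, 13% held it, about the share of all promoters. The ETS core was the most frequent of the 8 motifs searched on both strands. It was found in 29 of 44 members (65.9%), against 21.5% of all promoters and 32.2% of those with a peak in every library. Its longer form CCGGAAGT, which contains the core, was found in 9 members (20.5%), against 5.29% and 8.53%. TCTCGCGA, a sequence bound by ZBTB33 and related factors, was found in 7 members (15.9%), namely Rpl7a, Rpl12, Rpl26, Rpl35, Rps6, Rps19 and Rps28, against 1.51% and 2.49%.

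The YY1 motif GCCATNTT was found in 6 members (13.6%), against 6.69% of all promoters and 8.79% of those with a peak in every library. The Sp/KLF box GGGCGG was found in 25 members (56.8%), against 46.3% and 66.9%. CCAAT, the NF-Y element, was found in 14 members (31.8%), against 39% and 40.2%. GCATGCGC, a part of the NRF1 element, occurred in 1 member, Rpl5, against 3.61% and 5.6%. TATAAA was found in Rplp0, Rps2 and Rps28 (6.82% of members), against 13.3% and 6.7%. The members' promoters had a median GC content of 59% (40.7 to 72.3%), against 56.3% in all promoters and 61.3% in those with a peak in every library, and a median of 21 CpG pairs (8 to 35), against 13 and 21. Matches are letters in these 300 bases and do not show that a factor was bound.

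**Figure D1:**
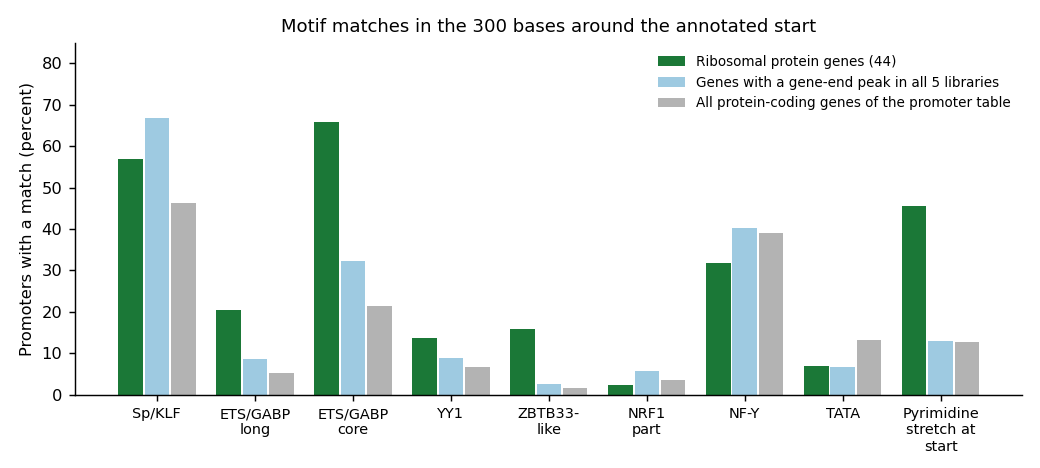
Share of promoters (vertical axis, percent) with at least 1 match to each motif (horizontal axis) in the 300 bases around the annotated start, for 44 ribosomal protein genes (green), genes with a gene-end peak in all 5 libraries (blue) and all genes of the promoter table (grey). The pyrimidine run was searched only within 20 bases of the start. The green bar is the tallest for both ETS forms, YY1, the ZBTB33-like motif and the pyrimidine run, with 65.9% for the ETS core and 45.5% for the run.

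A gene-end peak was called for nearly all of these genes in ectoderm and in forebrain. In forelimb replicate 1, 55 of 55 members had one (exact Clopper-Pearson 95% interval 93.5 to 100%), against 67.9% of all protein-coding genes. In forelimb replicate 2 it was 54 of 55 (90.3 to 100%), against 65.6%. Hindlimb replicate 1 had a peak for 53 of 55 (87.5 to 99.6%), against 58.6%, and hindlimb replicate 2 for 54 of 55 (90.3 to 100%), against 67.6%. In forebrain 55 of 55 members had one (93.5 to 100%), against 71.7%. These intervals cover counting error only, and members are not replicates of a tissue. Altogether 52 of 55 members (94.5%) had a peak in all 5 libraries, against 52.2% of all genes. The windows of a short gene overlap, which applied to the 44 members shorter than 5 kb. Among the 7753 genes no longer than the longest member (Rpl22, 9647 bases), 35.2% had a peak in all 5 libraries. No member lacked a peak in every library, against 19.6% of all genes. With the lists cut to the length of the shortest by −log10 p, 52 members again had a peak in all 5, against 49.9% of all genes.

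The 4 missing calls fell on 3 genes. Rpl6, a large-subunit protein, had no gene-end peak in hindlimb replicate 1, where the nearest summit was 10966 bases away. Its start had a peak in each other library, with a fold enrichment at the summit of 6.31 and 6.67 in forelimb replicates 1 and 2, 7.93 in hindlimb replicate 2 and 11.3 in forebrain. Fold enrichment and −log10 p are the authors' values for each peak in its own list. Rps15, a protein of the small subunit, also had none in hindlimb replicate 1, with the nearest summit 6904 bases away, and its fold was 6.48 and 4.22 in forelimb replicates 1 and 2, 4.97 in hindlimb replicate 2 and 9.05 in forebrain. Both of these missing calls were thus in the shortest list, and without that library 54 of 55 members had a peak in all remaining libraries. Leaving out a library can only keep or raise this count, and the share over all genes is not given here. A missing call says that no peak reached the threshold of its list, and leaves the openness of the site unknown.

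Rpl19, another large-subunit protein, lacked a peak under this rule in forelimb replicate 2 and hindlimb replicate 2. The gene table starts Rpl19 at chr11:98022003, whereas the first start in the promoter table, 98026710, lies inside that span. Measured from its annotated starts, Rpl19 had a peak in all 5 libraries. The start peaks had a fold of 2.57 and 4.58 in forelimb replicates 1 and 2, 3.01 and 2.77 in the hindlimb libraries, and 8.08 in forebrain, and their summits lay between 71 bases upstream and 242 bases downstream of the nearer start. The peaks that gave Rpl19 a value in the other 3 libraries lay 36 to 181 bases from an end or annotated start of Cacnb1, a calcium channel subunit gene. Its values below therefore describe that neighbour's end or start more than the Rpl19 promoter.

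Most members had a peak near 1 gene end and none near the other. A summit lay within 500 bases of exactly 1 gene end for 51 and 49 members in forelimb replicates 1 and 2, against 52.4% and 50.3% of all genes. The counts were 49 and 48 members in hindlimb replicates 1 and 2, against 45% and 51.8%, and 48 in forebrain, against 55.8%. Both ends had a summit within 500 bases in 0 and 1 members of the forelimb libraries, against 2.24% and 1.95%, in 0 and 2 of the hindlimb libraries, against 1.21% and 2.22%, and in 2 in forebrain, against 3.78%. Neither end did so for 4, 5, 6, 5 and 5 members in forelimb replicates 1 and 2, hindlimb replicates 1 and 2 and forebrain.

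For the 44 members with an annotated start, a summit within 2.5 kb of it was called for all 44 in every library except hindlimb replicate 1, which had 42. Genes with a start had one in 65.5% and 63.3% of cases in forelimb replicates 1 and 2, 57.4% and 65.2% in the hindlimb libraries, and 69.1% in forebrain. The members' strongest summit lay upstream of the start for 37, 35, 34 and 36 members in forelimb replicates 1 and 2 and hindlimb replicates 1 and 2, and for 34 in forebrain, against 69.2%, 71.1%, 69.1%, 70.8% and 68.6% of all genes with a start peak. Its median position relative to the start was −41.5 and −45.5 bases in the forelimb libraries, −49 and −45 bases in the hindlimb libraries and −32 bases in forebrain, against −45, −50, −45, −46 and −36 bases for all genes in the same order of libraries. Within 100 bases of the start lay 31, 33, 31, 34 and 37 of these summits in that order, against 53.6%, 52.6%, 53.5%, 54.8% and 59.5% for all genes with a start peak. Within 250 bases lay 40, 38, 37, 37 and 41 of them, against 73.5%, 72.8%, 74.4%, 73.3% and 75.9%. The median position was thus close to that of other genes, and the members' summits were more tightly gathered around it.

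**Figure D2:**
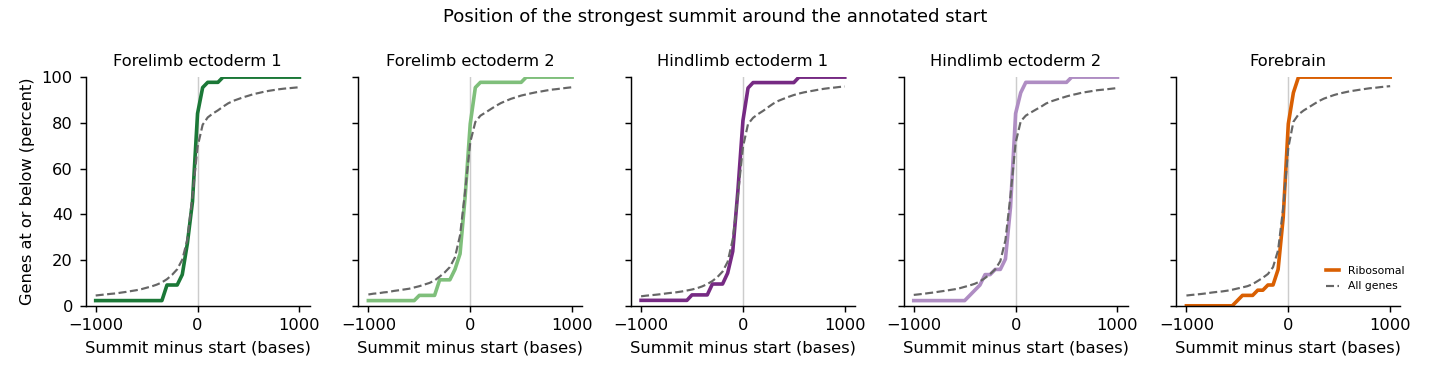
Cumulative share of genes (vertical axis, percent) whose strongest summit within 2.5 kb of the annotated start lay at or below a given position (horizontal axis, summit minus start in bases, negative upstream), for ribosomal protein genes (coloured line) and all genes with a start peak (dashed grey line), 1 panel per library. The coloured line climbs more steeply around the start, with 31 to 37 members within 100 bases of it.

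Many of these genes have another gene close by. Another protein-coding gene's end lay within 2.5 kb of a member's end for 27 of 55 members (49.1%), against 35.2% of all genes, and within 500 bases for 17 (30.9%), against 18.9%. Nearness of a summit to a gene was measured to its ends and annotated starts together. By this measure the strongest gene-end summit was nearer another gene than the member for 13 and 10 members in forelimb replicates 1 and 2. It was so for 12 and 11 in the hindlimb libraries, and 11 in forebrain. Among all genes with a peak the shares were 14%, 14.3%, 14.8%, 14.2% and 13.8%. For 41 of 55 members the member's own end or start was nearest in every library that had a peak, against 82.8% of genes with a peak in at least 1 library. No 2 members shared a strongest interval. Peaks of this kind cannot be assigned to 1 of the neighbours.

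The strongest summit of Rpl24, a large-subunit protein altered in the Belly spot and tail mouse, lay 2280 to 2288 bases beyond its gene end in every library. It lay 79 to 87 bases from an end or annotated start of Zbtb11, a zinc finger gene. An end of Zbtb11 also lay 0 bases from an end of Rpl24. At its own start the fold was 7.18 and 6.9 in forelimb replicates 1 and 2, 4.98 and 10.7 in the hindlimb libraries, and 15.5 in forebrain. For Rpl17, the strongest summit lay 2422 to 2434 bases beyond the gene and 24 to 36 bases from an end of BC031181, and no summit lay within 500 bases of either of its own table ends. The summit next in strength lay inside Rpl17, 1529 to 1543 bases from its lower end, with a fold of 5.54 and 7.61 in forelimb ectoderm, 6.85 and 7.58 in hindlimb ectoderm and 13.3 in forebrain. These 2 genes had their place in the lists from a neighbour's end or start at the edge of the window.

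Rpl18 and Rpl4 had their strongest summits away from their annotated starts. That of Rpl18 lay at −2736 to −2766 bases relative to the start, near the lower end of the gene in the table, in all 5 libraries. It lay 98 to 128 bases from an end or annotated start of Sphk2, a sphingosine kinase gene. The start of Rpl18 itself had a peak in every library, 31 to 56 bases upstream, with a fold of 3.64 and 3.37 in forelimb replicates 1 and 2, 4.01 and 6.83 in the hindlimb libraries, and 8.29 in forebrain. For Rpl4 the strongest summit lay 5 to 248 bases from an end or annotated start of Snapc5, a subunit of the small nuclear RNA activating complex. Around its own start, the strongest summit lay 4 bases away in forelimb replicate 1, with a fold of 3.58. In the other libraries it lay 489 to 508 bases upstream, with a fold of 5.23 in forelimb replicate 2, 3.84 and 4.06 in the hindlimb libraries, and 8.57 in forebrain. Rpl13 differed between the tissues in position. In the 4 ectoderm libraries its strongest summit lay 1836 to 1865 bases upstream of the start, with a fold of 5.22 and 5.96 in forelimb and 3.73 and 8.38 in hindlimb, and in forebrain it lay 16 bases downstream of the start with a fold of 15.9. A weaker summit stood at the start in ectoderm too, with a fold of 4.15 and 5.4 in forelimb and 3.24 and 5.63 in hindlimb.

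To set the members beside other genes within a list, all protein-coding genes with a gene-end peak were ordered by the −log10 p of their strongest gene-end summit, and the resulting place, 1 for the strongest, is given. A gene without a peak shared the last place, 1 beyond the genes with a peak. Lists of different length give different numbers of places, so a place is read within its list. The members' median place was 5172 and 5126 in forelimb replicates 1 and 2, 5196 and 4682 in the hindlimb libraries, and 4952 in forebrain. The middle place among genes with a peak was 7435.5, 7177, 6409, 7398.5 and 7842 in the same order. Median fold, over members with a peak, was 9.03, 8, 5.83, 10.5 and 15, against 6.9, 6.49, 4.92, 7.54 and 11.3 for all genes with a peak. The members thus sat nearer the top than the middle in each list, but few were among its first places. In hindlimb replicate 1 the members' median was 5661 against a middle of 5618 within 1 kb of a gene end. At −log10 q of 5 or more it was 5196 against 5043. These 2 sides are unlike, since members without a peak count at the last place and the middle covers genes with a peak only. In that list 52 and 51 members had a peak under these settings, so such small gaps cannot show an exception.

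In the strongest 25% of genes with a peak were 17 and 22 members in forelimb replicates 1 and 2, 19 and 22 in the hindlimb libraries, and 19 in forebrain, where 25% of genes lie by construction. The second 25% held 26, 18, 15, 17 and 26 members, the third held 11, 14, 17, 15 and 9, and the weakest held 1, 0, 2, 0 and 1. Among genes with a peak in the same library, the shortage at the weak end was therefore more marked than the excess at the strong end. The share in the weakest 25% of genes with a peak in every library is not given here. Among the 11433 genes with a peak in every library, 32, 31, 30, 31 and 32 of the 52 members lay in the stronger 50% of the list. Of all 55 members, 13 were in the strongest 25% in all 5 libraries, against 19.1% of those 11433 genes, and 31 were in the strongest 50% in all 5, against 45.6%. Measured against genes with a peak in every library, the members were thus only a little nearer the top than the middle. The 13 were Rpl13a, Rpl15, Rpl17, Rpl24, Rpl27, Rpl30, Rpl34, Rpl37, Rps13, Rps19, Rps21, Rps26 and Rps29, of which Rpl17 and Rpl24 owed the place to a neighbour's end or start. The summits of Rpl15 and Rpl37 also lay nearer a neighbour's end than their own start. Rpl30, which also controls its own splicing in yeast, had places 3222 and 1744 in forelimb ectoderm, 2205 and 3302 in hindlimb ectoderm and 1820 in forebrain.

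**Figure D3:**
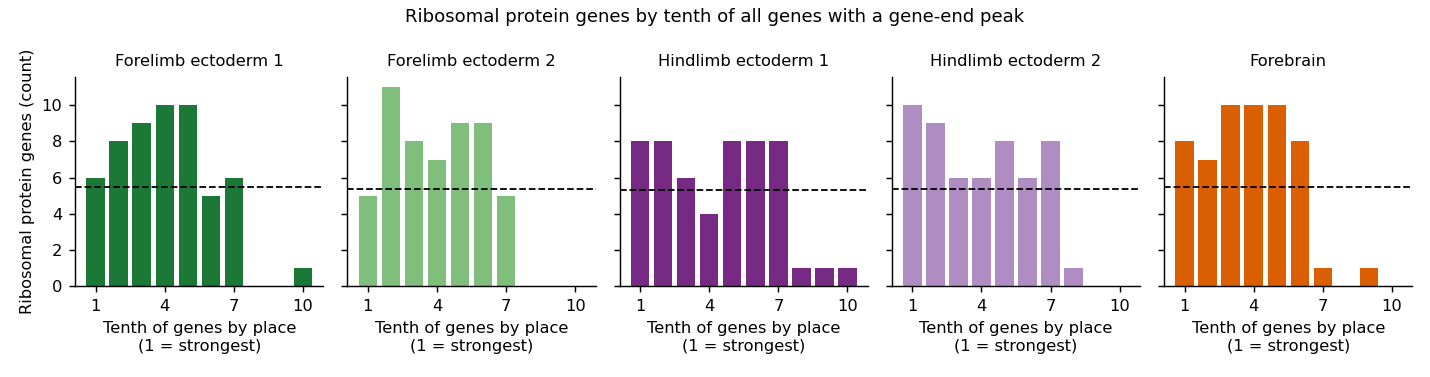
Number of ribosomal protein genes with a gene-end peak (vertical axis, count) in each 10% of all genes with a gene-end peak ordered by −log10 p (horizontal axis, 1 strongest), 1 panel per library. The dashed line is an even spread of the members, and the weakest 25% holds 0 to 2 members in each list.

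Among all distinct intervals of a list, wherever they lie in the genome, the members' strongest intervals had a median standing in the top 7.37% and 7.87% in forelimb replicates 1 and 2, the top 11% and 6.43% in the hindlimb libraries, and the top 3.8% in forebrain. The strongest 10% of intervals held 39, 32, 24, 34 and 53 members in the same order of libraries, against 43.3%, 40.9%, 37.2%, 42.6% and 63.2% of all genes with a peak.

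Rpl37, a large-subunit protein, was nearest the top by its mean ectoderm place. Its place was 328 and 406 in forelimb replicates 1 and 2, 75 and 114 in the hindlimb libraries, and 45 in forebrain, with a −log10 p of 198, 168, 138, 349 and 943 in that order. Its fold was 15.1 and 14.3 in forelimb ectoderm, 13 and 18.2 in hindlimb ectoderm and 17.4 in forebrain. Its summit lay 82 to 176 bases upstream of the start, upstream of the ETS cores printed above, and 31 to 125 bases from an end of Card6, a caspase recruitment domain gene. Rpl15, a large-subunit protein, followed with places 298 and 136 in forelimb ectoderm, 365 and 260 in hindlimb ectoderm and 114 in forebrain, and folds of 18.1, 18.5, 12.7, 19.8 and 19.1. Its summit lay 102 to 114 bases upstream of the start and 36 to 48 bases from an end of Nkiras1, which encodes an inhibitor of NF-kappa-B signalling. Both of the strongest members thus had their summit close to their own start but nearer to an end of another gene. Rpl24, whose strongest summit lay at the edge of its window by Zbtb11, had places 1571, 819, 94, 479 and 393. By the peak at its own start, ranked among genes with a start peak, its places were 6258, 5934, 5392, 4208 and 3412. The members' medians by start were 4480, 4441, 4782, 4338 and 4475.

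The small-subunit proteins Rps21 and Rps29 came next, with no nearer neighbour. Rps21 had places 1315 and 1912 in forelimb ectoderm, 313 and 914 in hindlimb ectoderm and 1013 in forebrain, with summits 74 to 112 bases upstream of its start. Rps29 had places 1869 and 2067 in forelimb ectoderm, 602 and 423 in hindlimb ectoderm and 419 in forebrain, with summits 0 to 17 bases from its gene end. Its fold was 12.3 and 11.1 in forelimb ectoderm, 11 and 18.3 in hindlimb ectoderm and 17.1 in forebrain. For both genes the hindlimb places were nearer the top than the forelimb ones.

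At the other end were Rpl19, Rps15 and Rpl6, each of which lacked a call, and the large-subunit genes Rpl12 and Rpl8. Rps15 and Rpl6 stand here in part because their missing call in hindlimb replicate 1 was counted as place 12818. Rpl12, at the factor-binding stalk base, had places 10266 and 8691 in forelimb ectoderm, 8009 and 10232 in hindlimb ectoderm and 9136 in forebrain, with folds of 4.37, 5.16, 3.81, 4.75 and 11.1. Its summit lay 46 to 88 bases upstream of the start and 2 to 17 bases from an end or annotated start of Lrsam1, a ubiquitin ligase gene. A close neighbour thus also occurred among the weakest members. Rpl8 had places 6210 and 9169 in forelimb ectoderm, 10423 and 9801 in hindlimb ectoderm and 9275 in forebrain. Rps15 had places 6884 and 9846 in forelimb, 9253 in hindlimb replicate 2 and 8978 in forebrain, and Rpl6 had 7994, 7187, 8204 and 10641.

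**Figure D4:**
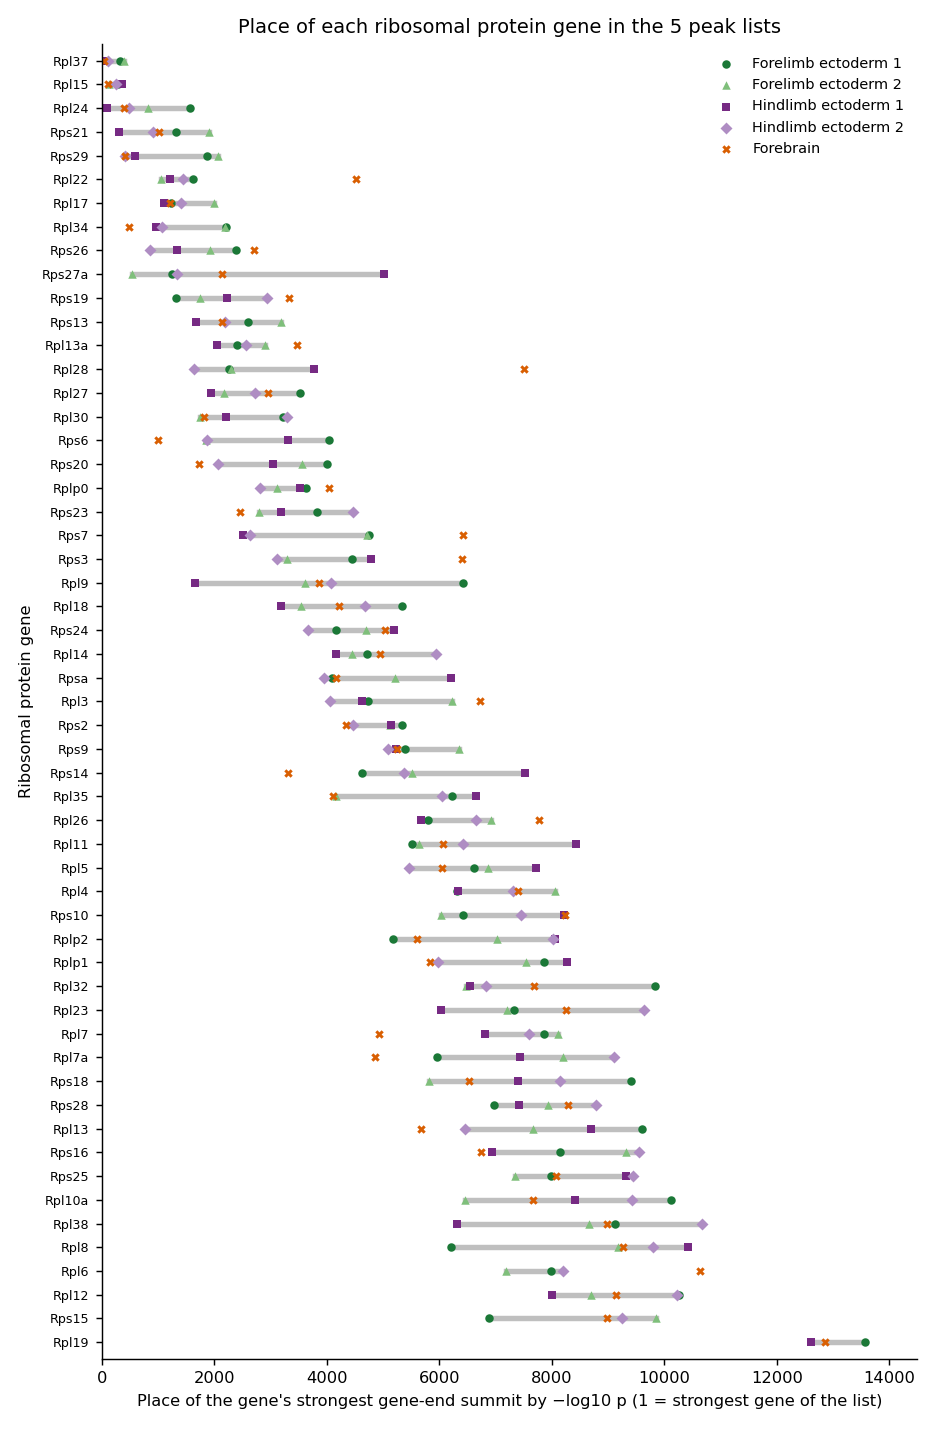
Place of each ribosomal protein gene's strongest gene-end summit (horizontal axis, 1 strongest) for the 55 genes (vertical axis, sorted by mean ectoderm place), with 1 point per library and a grey bar over the range of the ectoderm libraries. Rpl37 and Rpl15 stand at the top, between 75 and 406 in ectoderm, and a missing call has no point.

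Members of known special roles were spread over this range. These were named for their roles after their values were seen. The large-subunit members had median places of 5798 and 6235 in forelimb replicates 1 and 2, 6034 and 5980 in the hindlimb libraries, and 5613 in forebrain. The small-subunit members had medians of 4306.5, 4708.5, 5074, 3812 and 4252.5, nearer the top in all 5 lists, although both subunits covered most of the range. Of the acidic stalk proteins, which recruit translation factors, Rplp0 had places 3628, 3114, 3525, 2821 and 4049 in forelimb replicates 1 and 2, hindlimb replicates 1 and 2 and forebrain. Rplp1 had 7855, 7538, 8269, 5980 and 5840 and Rplp2 had 5172, 7031, 8056, 8024 and 5613, so Rplp0 was nearer the top than both others in each list. Rpl5 and Rpl11, which together bind Mdm2 when ribosome assembly fails, had places 6617, 6871, 7725, 5468 and 6057, and 5524, 5634, 8432, 6426 and 6072. Rpl38, whose loss changes the translation of Hox transcripts and the axial skeleton in the Tail short mouse, had places 9122 and 8667 in forelimb ectoderm, 6323 and 10663 in hindlimb ectoderm and 8983 in forebrain, farther from the top than the members' median in all 5 lists.

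Rps6, a phosphorylation target of the mTOR pathway, had places 4045 and 1849 in forelimb ectoderm, 3320 and 1872 in hindlimb ectoderm and 998 in forebrain. Rps19, whose human counterpart is mutated in Diamond-Blackfan anaemia, had places 1324 and 1752 in forelimb ectoderm, 2220 and 2938 in hindlimb ectoderm and 3327 in forebrain. Rps20, in which a mouse mutation darkens skin, had places 4005, 3560, 3043, 2072 and 1724. Rps27a, made as a fusion with ubiquitin, had places 1245 and 532 in forelimb ectoderm, 5013 and 1335 in hindlimb ectoderm and 2148 in forebrain, with hindlimb replicate 1 set apart from the rest.

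Across the ectoderm libraries, the places of a member with peaks in all 5 spanned a median of 2013.5, against 2183 for all genes with peaks in all 5. The span was 229 places for Rpl15 and 331 for Rpl37, and reached 4765 for Rpl9, a large-subunit gene. The order of the members was alike between libraries, with Spearman's rho from 0.83 to 0.91 over 52 to 54 members between pairs of ectoderm libraries and from 0.77 to 0.84 over 53 to 55 between ectoderm and forebrain. Over all genes with a peak in both libraries, rho was 0.87 to 0.93 between ectoderm pairs and 0.8 to 0.84 with forebrain. These are descriptions across genes, which are not independent, and the lists share the genome's base composition and mappability.

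Of the promoter features, the ETS core, the pyrimidine run and TCTCGCGA were compared by place. The 29 members with an ETS core had median places of 5798, 5820, 6323, 6660 and 6411 in forelimb replicates 1 and 2, hindlimb replicates 1 and 2 and forebrain, whereas the 15 without had 4164, 3535, 3525, 4082 and 4517. The 20 members with a pyrimidine run had medians of 5368, 5258, 5774, 5702.5 and 5143, and the 24 without had 5045.5, 4923.5, 4960, 4273 and 5294.5. The 7 members with TCTCGCGA had medians of 5954, 6920, 6653, 6660 and 4859. The places with an ETS core were thus farther from the top in all 5 lists, and those with a run were farther from it in the 4 ectoderm lists and slightly nearer to it in forebrain. These places are by gene-end peaks, and some came from a site other than the promoter searched. Among members with an ETS core this held for Rpl4, Rpl19 and Rpl24, and among those with a run for Rpl4 and Rpl18. Medians of these groups by start peaks are not given here. The 17 members with another gene's end within 500 bases had medians of 5954, 5126, 6334, 6046 and 4343, and the 28 with none within 2.5 kb had 4540.5, 4577, 4397.5, 3868 and 5143. The 10 members with one at 500 to 2500 bases had 6750.5, 6669, 6512.5, 6531.5 and 5497.5, farther from the top than both other groups in all 5 lists. Members with a neighbour within 500 bases were thus farther from the top than those with none in the 4 ectoderm lists, and nearer to it in forebrain. Across the 3 groups, the place did not follow the distance to the neighbour in order.

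Peak widths were ordinary. Over members with a peak, the strongest interval had a median width of 582 bases (211 to 1167) in forelimb replicate 1 and 569 bases (259 to 1381) in forelimb replicate 2, against 582 and 517 bases for all genes with a peak. The hindlimb medians were 464 (207 to 936) and 510 bases (301 to 985), against 421 and 535, and the forebrain median was 966 bases (640 to 2305), against 955. Against genes with a peak in all 5 libraries, whose medians were 664, 583, 451, 614 and 1033 bases, the members were narrower in 4 of the 5 lists. The median width over all genes was also larger in forebrain, and width depends on depth and on the authors' threshold.

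An interval holding more than 1 summit was found at 15 members in each forelimb library (27.3% and 27.8% of those with a peak), against 34.3% and 29.8% of all genes. It was found at 10 and 14 members in hindlimb replicates 1 and 2 (18.9% and 25.9%), against 21.4% and 30.4%, and at 32 in forebrain (58.2%), against 56.7%. More than 1 interval lay in the window of 17, 14, 13, 18 and 14 members, against 37.6%, 36.2%, 28.1%, 37.8% and 37.9% of all genes with a peak. The widest was Rpl7, a large-subunit gene, at 1167 and 1381 bases in forelimb ectoderm, 341 and 985 in hindlimb ectoderm and 2305 in forebrain, with 3, 4, 1, 3 and 6 summits. Rps25, a small-subunit gene needed for initiation at some viral entry sites, had 1164, 845, 226, 847 and 1148 bases with 3, 2, 1, 3 and 3 summits. Rps27a, Rps19 and Rpl5 were the other members among the 5 widest. Among the narrowest besides Rpl19 were Rpl6, at 326 and 259 bases in forelimb, 301 in hindlimb replicate 2 and 853 in forebrain, and Rpl8, at 302, 292, 216, 508 and 897. Rps26 was narrow in ectoderm, at 354 and 377 bases in forelimb and 355 and 380 in hindlimb, where it lay between places 856 and 2386, and in forebrain it was 1110 bases wide, above the members' median there. Rpl13 was the remaining one.

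**Figure D5:**
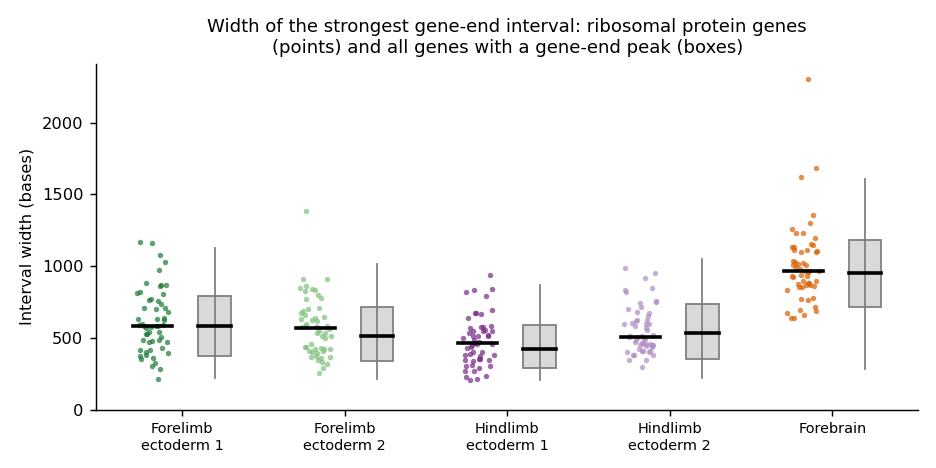
Width of the strongest gene-end interval (vertical axis, bases) in each library (horizontal axis). Points are ribosomal protein genes, boxes span the middle 50% of all genes with a gene-end peak with whiskers from their 5th to 95th percentiles, and thick lines are medians, which were 582, 569, 464, 510 and 966 bases for the ribosomal genes.

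The forebrain places lay inside the ectoderm range about as often as outside it. Of the 52 members with a peak in all 5 libraries, forebrain was nearer the top than each of the 4 ectoderm libraries for 15 (28.8%), against 29.2% of the 11433 genes with a peak in all 5. It was farther from the top than each of them for 11 (21.2%), against 28.6%, and within the ectoderm range for 26 (50%), against 42.2%. These counts compare raw places, and the forebrain list has 15683 genes with a peak, against 12817 to 14870 in ectoderm. Rpl3 is among the 11. As a share of genes with a peak, however, its 42.8% in forebrain lay within the 27.5 to 43.4% of the ectoderm libraries. With genes ordered by fold in place of −log10 p, forebrain was nearer the top for 22 of the 52 members, against 30.1% of genes, and farther from it for 12, against 34.6%. Forebrain has 1 library, so the difference has no replicate check and no test was made.

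The members farthest nearer the top in forebrain were Rpl7, Rps14, Rpl7a, Rps6 and Rpl13. Rpl7 had ectoderm places of 7857 and 8103 in forelimb and 6807 and 7595 in hindlimb, and 4938 in forebrain. Rps14, lost in a human myelodysplastic syndrome, had 4632, 5512, 7529 and 5376 in ectoderm and 3320 in forebrain. Rpl7a had 5954, 8201, 7429 and 9105 in ectoderm and 4859 in forebrain, and Rpl13, whose strongest summit was at its start in forebrain, had 9603, 7668, 8692 and 6455 in ectoderm and 5679 in forebrain. For Rpl7 the gap to the nearest ectoderm library exceeded the ectoderm range, and for the other members named here it was smaller.

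In the other direction stood Rpl28, Rpl22, Rps7, Rps3 and Rpl26. Rpl28, a large-subunit gene, had ectoderm places of 2273 and 2302 in forelimb and 3779 and 1647 in hindlimb, and 7501 in forebrain. Its fold was 11, 10.3, 6.42 and 13.8 in ectoderm and 11.6 in forebrain. Rpl22, a protein also known for a role in T cell development, had 1619, 1064, 1218 and 1453 in ectoderm and 4517 in forebrain, with folds of 12.3, 13.4, 9.15 and 14.4 and of 15.7. For both genes the forebrain place, as a raw number, lay farther from the ectoderm range than that range was wide. The fold in forebrain was higher than in at least 3 of the 4 ectoderm libraries, but the median fold of genes was also higher there. Over all genes with a peak, the median fold was 11.3 in forebrain and 6.9, 6.49, 4.92 and 7.54 in ectoderm. Rpl28 was thus close to that median in forebrain and above it in each ectoderm library. Rps7 had 4757, 4721, 2512 and 2641 in ectoderm and 6417 in forebrain, and Rps3, which also takes part in DNA repair, had 4449, 3301, 4785 and 3119 in ectoderm and 6411 in forebrain. Rpl26, known to bind p53 messenger RNA, had 5798, 6920, 5677 and 6660 in ectoderm and 7771 in forebrain.

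Between the limbs, the places of the 2 forelimb and the 2 hindlimb libraries overlapped for 33 of 52 members (63.5%), against 56.5% of all genes with a peak in all 5. Both forelimb places were nearer the top for 7 of the 52 members, against 20.5% of all genes with a peak in all 5, namely Rpl8, Rpl11, Rplp2, Rps10, Rps19, Rps25 and Rps27a. Both hindlimb places were nearer the top for 12 (23.1%), against 23%, namely Rpl3, Rpl7, Rpl24, Rpl34, Rpl37, Rps7, Rps9, Rps13, Rps20, Rps21, Rps26 and Rps29. These counts again compare raw places. Hindlimb replicate 1 has 12817 genes with a peak, against 14355 to 14870 in the other ectoderm lists, so its places are smaller numbers. As a share of genes with a peak, Rpl3 stood at 31.9% and 43.4% in forelimb and 36.1% and 27.5% in hindlimb. Rpl7 stood at 52.8% and 56.4%, and at 53.1% and 51.3%. By share the limbs thus overlapped for both genes. With 2 libraries against 2, the smallest p that a two-sided exact permutation test could give is 0.33, and no test was made.

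Related gene lists were set beside the members. Of 29 other ribosomal protein genes, 28 had a peak in all 5 libraries, and Rpl39l, a testis-enriched relative of Rpl39, had none in any. Their median places were 5040 and 5293 in forelimb replicates 1 and 2, 4975 and 5039 in the hindlimb libraries, and 5383 in forebrain. All 17 listed genes for other proteins with terminal oligopyrimidine messages, such as elongation factors and poly(A)-binding protein, had a peak in all 5, with medians of 3292, 3234, 2344, 3584 and 2908. Proteins of the mitochondrial ribosome, which is a separate machine encoded by other nuclear genes, had a peak in all 5 libraries for 69 of 78 genes, with medians of 6544, 5846.5, 5779.5, 6225.5 and 7118.5. In each list the members' median thus lay between those of the oligopyrimidine translation genes and the mitochondrial ribosomal genes.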

How the data were processed

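The deposited files were 1 narrowPeak list per library. Per the submitters' processing notes, the build was mm10 and the tools included MACS2 2.1.1.20160309, Bowtie2 2.3.5, cutadapt 1.16, bedtools and Picard, with no role stated. A shift of reads to the transposase cut was not given in the sources used here. Each deposited row gives an interval, a score (not used), the fold enrichment at the summit as a linear ratio, the −log10 q-value and −log10 p-value there, and the summit offset. The smallest deposited −log10 q was 1.3 or 1.31. Rows with the same interval were counted as summits of 1 peak.

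Gene ends and names came from a RefSeq table (GRCm38.p6), with starts and promoter sequences from a second one. A gene's value was that of its summit of highest −log10 p within 2.5 kb of either end. With several starts for a gene, the nearest counted for positions and the first listed for motifs.

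No test was made. Shares carry exact Clopper-Pearson 95% intervals, and counts of members stand beside the same over all genes. The scripts (Python 3.11.15, pandas 2.3.3, scipy 1.17.1) were tested on simulated peaks. Named genes were those without a call, the 5 highest and lowest by mean ectoderm place, the 5 farthest outside the ectoderm range each way, the 5 widest and narrowest, and those with 3 or more summits in 3 libraries. Others were named for their role or position. Members and lists were chosen with earlier results of these data known.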

Additional observations from a re-analysis of the deposited data

How the results depend on the processing

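Other windows, thresholds and rankings left most members open everywhere and kept their median places nearer the top than the middle in all lists but that of hindlimb replicate 1. The medians count members without a peak at the last place, whereas the middle covers genes with a peak only. Of 134 values recomputed, 104 stayed within 1.5 times the count, or for medians within the SD over the 4 ectoderm libraries (243 places or 54.7 bases). Within 1 kb of a gene end, 50 members had a peak in all 5 libraries (46.4% of all genes), and the median place was 5661 in hindlimb replicate 1 and 4967 in hindlimb replicate 2. By annotated starts alone (44 members, ranked among genes with a start), 42 had one in all 5, against 52.2% of genes with a start. Median places were then 4480 and 4441 in forelimb replicates 1 and 2, 4782 and 4338 in the hindlimb libraries, and 4475 in forebrain. The median width in forelimb replicate 2 was 451 bases, and intervals with more than 1 summit numbered 9 in forelimb replicate 2 and 5 and 9 in hindlimb replicates 1 and 2. At −log10 q of 5 or more, 51 members had a peak in all 5 (43.9% of all genes) and 5 had more than 1 summit in hindlimb replicate 1. Lists of equal length gave 52 (49.9%). The −log10 q limit and this cut drop only weak peaks, so the places of members that kept a peak could not change under either. Such values are among the 104. Ranked by fold, the median place was 4924 in forelimb replicate 1 and 3894 in forebrain, and forebrain was nearer the top than all ectoderm libraries for 22 members (30.1% of all genes) and farther for 12 (34.6%). For the 28 members without another gene's end within 2.5 kb, a peak was present in 28 and 28 in forelimb, 27 and 28 in hindlimb, 28 in forebrain and 27 in all 5. Their median places were 4540.5, 4577, 4397.5 and 3868 in the ectoderm libraries, and 6, 7, 5 and 3 of them had more than 1 summit there, against 17 in forebrain. Forebrain was nearer the top for 9 of them and farther for 9, against 28.4% and 30.1% of genes without such a neighbour. Leaving out 1 ectoderm library at a time gave 52 to 54 members with a peak in all others, 16 to 18 nearer the top in forebrain and 12 to 14 farther. Such an omission can only keep or raise these counts, and the same shares over all genes are not given here. No paired analysis was possible because no result comes from a test and the lists hold no counts. The cause of these shifts was not tested. Read depth is unknown, so a missing call in the shortest list was not separable from depth.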
